A study of Mus musculus with 27 samples.

Results

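The comparison described here sets liver gene expression of mice fed a high-fat diet against that of mice fed lab chow, the natural-ingredient diet that many feeding studies use as their control. Its members are 6 arrays, 3 high fat by their titles and 3 lab chow by their descriptions (titled Current LAR Diet), out of 27 arrays on 9 diets. A gene was counted as detected when at least 1 of its probes had a mean above log2(100), an intensity of 100, over the high-fat arrays or over the lab chow arrays. This held for 5935 of 18193 genes on the array, and the value of a gene is the mean of the probes that met the level. All mice were male C57BL/6 animals, 10 weeks old by the labels, and were fed for 3 weeks, with 1 array for the liver of 1 mouse, so that p-values measure the spread between mice. The high-fat group ate a purified diet rich in saturated and monounsaturated fat that also held sucrose. The lab chow group ate the natural-ingredient diet, with little fat and very little sucrose. Both were fed without restriction, were not fasted and were killed in the morning. The 3 arrays of mice on AIN-93M (AIN-93 below), a low-fat purified diet, are given beside both. High fat and lab chow differ in fat, in sugar and in being made of purified or of natural ingredients, and the contributions of these to a gene cannot be told apart here.

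The liver takes up fatty acids, burns them in mitochondria and peroxisomes, stores them in lipid droplets and exports them in lipoproteins. PPARα (Ppara) is a nuclear receptor that fatty acids activate and that drives the genes of fatty acid burning. The constitutive androstane receptor (CAR, Nr1i3) and the pregnane X receptor (PXR, Nr1i2) sense foreign chemicals and induce cytochrome P450 enzymes and other enzymes of detoxification, while glutathione S-transferases couple reactive chemicals to glutathione. SREBP2 turns on the genes of cholesterol synthesis when the cell is short of sterol.

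Before the genes, the control probes have to be described, since they separated the same 6 arrays. The poly-A spike-in RNAs, bacterial transcripts that are added to each RNA sample in a fixed amount before labelling, had mean log2 values of 7.62 to 8.29 on the high-fat arrays and 10.5 to 11.6 on the lab chow arrays, with 9.85 to 10.4 on the AIN-93 arrays. The 18S ribosomal RNA probes had mean log2 values of 11.2 to 11.3 on high fat and 14.3 to 14.4 on lab chow. The 3′ end of Gapdh exceeded its 5′ end by 0.779 to 0.940 log2 units on high fat and by 1.14 to 1.66 on lab chow. Hybridization controls, which are added after labelling, lay at 11.2 on each high-fat array and at 11.4 to 11.6 on lab chow. Across all 27 arrays, 12 had a low spike-in level (8.86 or less) and 15 a high one (9.85 or more). The high-fat, Western and atherogenic arrays were all low, the EFA-deficient diet and the low n-3 diet (titled DHA-supplemented in the labels) held arrays of both kinds, and the lab chow arrays were all high. The labels give no labelling batch. Between high fat and lab chow the diet and the spike-in level cannot be told apart from these 6 arrays. Diets with both kinds of array allowed a fit with the spike-in level of each array as a covariate. Across the gap between low and high levels, that fit rests on the EFA-deficient and low n-3 arrays. It cannot adjust for the 18S difference, since the Western arrays, also low in spike-in, had 18S values of 13.7 to 14.5. A call kept with the covariate is limited in both ways. The adjusted p of the covariate fit, and the median for some lists, is given beside the main one below.

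**Figure D1:**
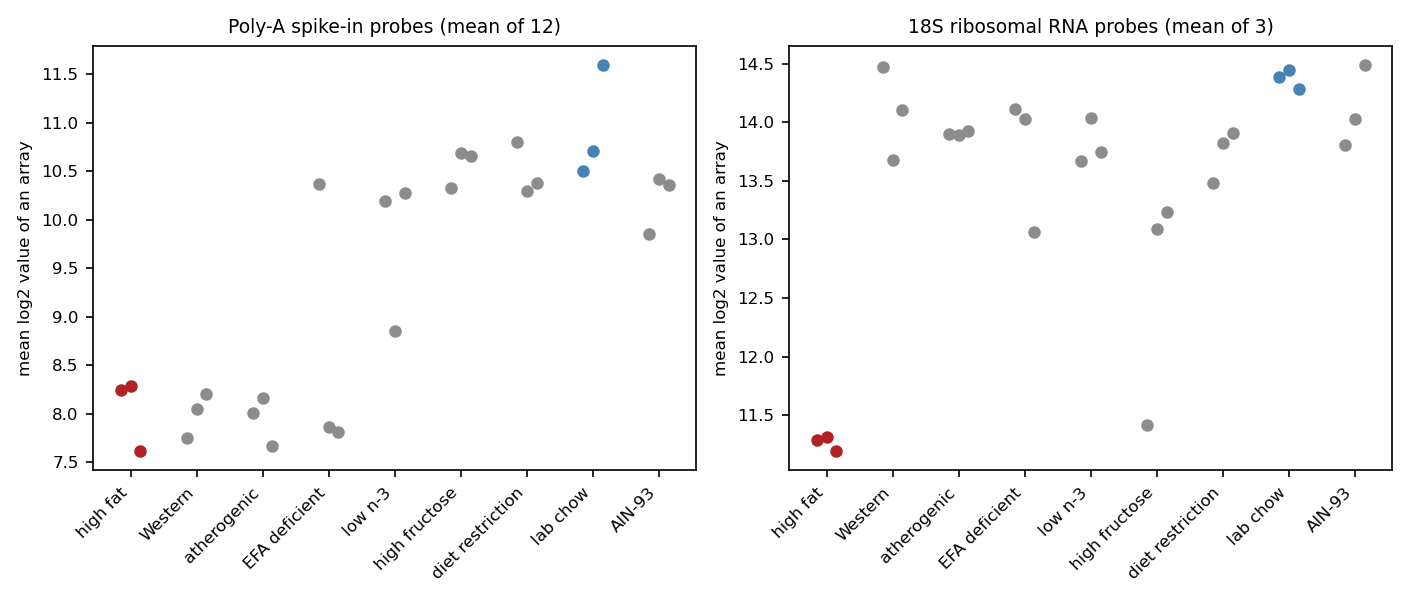
Mean log2 values of the poly-A spike-in probes (left) and of the 18S ribosomal RNA probes (right) on each of the 27 arrays, 1 point an array, by diet, with high fat in red and lab chow in blue. High-fat arrays lie at 7.62 to 8.29 and lab chow arrays at 10.5 to 11.6 for the spike-in probes.

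In all, 246 genes were higher and 102 lower on high fat than on lab chow at an adjusted p under 0.05 in limma, which is 5.86% of the 5935 genes detected (4.14% higher and 1.72% lower). The median over all detected genes was a log2 difference of 0.04, and 56.1% of them lay above 0. Most changes were moderate. The median increase was to 149% of lab chow and the median decrease to 67.2% of lab chow, and 30 increases and 21 decreases were larger than 2-fold. The 3 high-fat arrays did not overlap the 3 lab chow arrays for 245 of the 246 and 100 of the 102 genes. The same held for 2018 of all 5935 detected genes, so a lack of overlap alone does not set a gene apart. Of the genes called, 34 higher and 13 lower were detected on only 1 of the diets, and such genes entered the test because they were high there. Their direction was therefore fixed by the filter, and counts over the members detected on both diets are given below for the lists whose calls or median turn on such genes. The direction was the same in 347 of the 348 genes with the spike-in level as a covariate, but 36 of the 348 calls were kept, while 252 had an unadjusted p under 0.05. Leaving out 1 array at a time kept between 116 and 200 of the calls, and 87 calls (67 higher and 20 lower) were kept in all 6 of these fits. Of those 87, 14 higher and 6 lower genes were also called with the covariate. A call lost with the covariate can go with a wider interval or with a smaller difference. For Fads2 the log2 difference was 1.32 (0.78 to 1.87) in the main fit and 1.54 (0.62 to 2.46) with the covariate. For Cyp3a11 it was -1.32 (-1.79 to -0.85) in the main fit and -0.77 (-1.50 to -0.03) with the covariate.

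Fatty acid burning gave called increases and no called decrease on high fat. In mitochondrial fatty acid oxidation 22 genes were detected on both diets, and they all lay above 0 (median log2 difference 0.40), with 5 that rose. A further 2 genes, of which Acad10 was called, were detected on high fat only, which gives 6 calls in 24 genes. Of 19 detected peroxisomal genes 17 lay above 0 and 2 below (median 0.36), with 5 called higher and none called lower. The largest increase among them was in Decr2, the peroxisomal reductase that prepares polyunsaturated fatty acids for oxidation. Its intensity was 1694, 1993 and 1171 on the high-fat arrays, against 569, 713 and 587 on the lab chow arrays, so that the lowest high-fat array stood above every lab chow array. This was 255% of lab chow (95% confidence interval 193 to 336%, limma adjusted p = 0.000459). The AIN-93 arrays read 444, 609 and 596. Decr1, the mitochondrial enzyme of the same kind, had 1540, 1376 and 1505 on high fat and 896, 907 and 1021 on lab chow (157%, 123 to 199%, adjusted p = 0.0236). Slc25a20, the carrier that brings acylcarnitines into the mitochondrion, had 3006, 3141 and 3012 on high fat and 2000, 1929 and 2042 on lab chow (153%, 120 to 196%, adjusted p = 0.0365). Acaa2, which cleaves off acetyl-CoA in the last step of the cycle, reached 165% of lab chow (134 to 202%, adjusted p = 0.00547).

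The other mitochondrial calls were Eci1, an isomerase for unsaturated fatty acids, Acadvl, the dehydrogenase for very long chains, and Acad10, which was at least 1.30-fold higher since its lab chow arrays lay below the detection level. The other peroxisomal ones were Pex19, Ech1, Acot8 and Pxmp2. Apart from Acad10, these 6 genes had log2 differences between 0.33 and 0.63. Cpt1a, the gatekeeper of mitochondrial entry, had 1934, 2578 and 2860 on high fat and 1594, 1448 and 1689 on lab chow, without overlap, and did not pass the test (154%, 107 to 222%, adjusted p = 0.142). With the spike-in covariate the median of the 24 mitochondrial genes was 0.52 and that of the peroxisomal list 0.50, and the calls of Decr2 (adjusted p = 0.0024), Decr1 (0.0304), Slc25a20 (0.0186), Eci1 (0.0375) and Pex19 (0.0186) were kept, but not those of the other 6 genes (0.0868 for Acot8 to 0.762 for Acad10). Leaving out 1 array leaves a group with 2. Acaa2, Decr2, Eci1 and Pex19 were called without any single array. The calls of Slc25a20, Acad10 and Pxmp2 were lost without each of the 6 arrays (adjusted p up to 0.105 without high fat replicate 1, 0.122 without high fat replicate 3 and 0.148 without lab chow replicate 3). Decr1 and Ech1 lost theirs in 5 of the 6 fits (up to 0.0939 without high fat replicate 1 and 0.0993 without lab chow replicate 3), Acot8 in 3 (up to 0.0913 without lab chow replicate 3) and Acadvl in 2 (up to 0.0848 without high fat replicate 1).

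Ppara itself was higher, with 1126, 1254 and 1284 on high fat and 592, 787 and 814 on lab chow (168%, 130 to 219%, limma adjusted p = 0.0171), against 732, 548 and 581 on AIN-93. Among 18 detected genes of omega oxidation and other PPARα targets, 3 rose and none fell (median 0.32), and Ppara is 1 of the 3. Aldh3a2, the fatty aldehyde dehydrogenase, read 3449, 3567 and 3257 on high fat, 1704, 1607 and 1467 on lab chow and 742, 1238 and 890 on AIN-93. That was 215% of lab chow (146 to 316%, adjusted p = 0.0177). Plin2, a coat protein of lipid droplets, reached 193% of lab chow (137 to 270%, adjusted p = 0.0197). Cyp4a14, which hydroxylates fatty acids at the omega end, read 5634, 5321 and 6290 on high fat and 2138, 1044 and 973 on lab chow. Its arrays on these diets did not overlap, but the interval from the fit over all 27 arrays was wide and the difference did not pass the test (443%, 94.7 to 2070%, adjusted p = 0.239). On AIN-93 it read 65.5, 307 and 13.8. Aldh3a2 kept its call with the spike-in covariate (adjusted p = 0.039), and Ppara (0.0522) and Plin2 (0.0733) did not. Without single arrays Ppara lost its call in 3 of 6 fits (up to 0.0863, without lab chow replicate 1), and Aldh3a2 (0.0732, without lab chow replicate 3) and Plin2 (0.109, without high fat replicate 1) in 4 each.

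Of 3 detected genes of ketone body formation 2 rose. Bdh1, which reduces acetoacetate to beta-hydroxybutyrate, had 1427, 1464 and 1300 on high fat and 878, 748 and 684 on lab chow (182%, 145 to 229%, limma adjusted p = 0.003). Acat1, the mitochondrial acetoacetyl-CoA thiolase, stood at 142% of lab chow (117 to 172%, adjusted p = 0.0292). Neither was called with the spike-in covariate (adjusted p = 0.152 and 0.269). Acat1 lost its call without each array in turn (up to 0.0931, without lab chow replicate 3), and both lost it when the brightest probe stood for the gene.

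**Figure D2:**
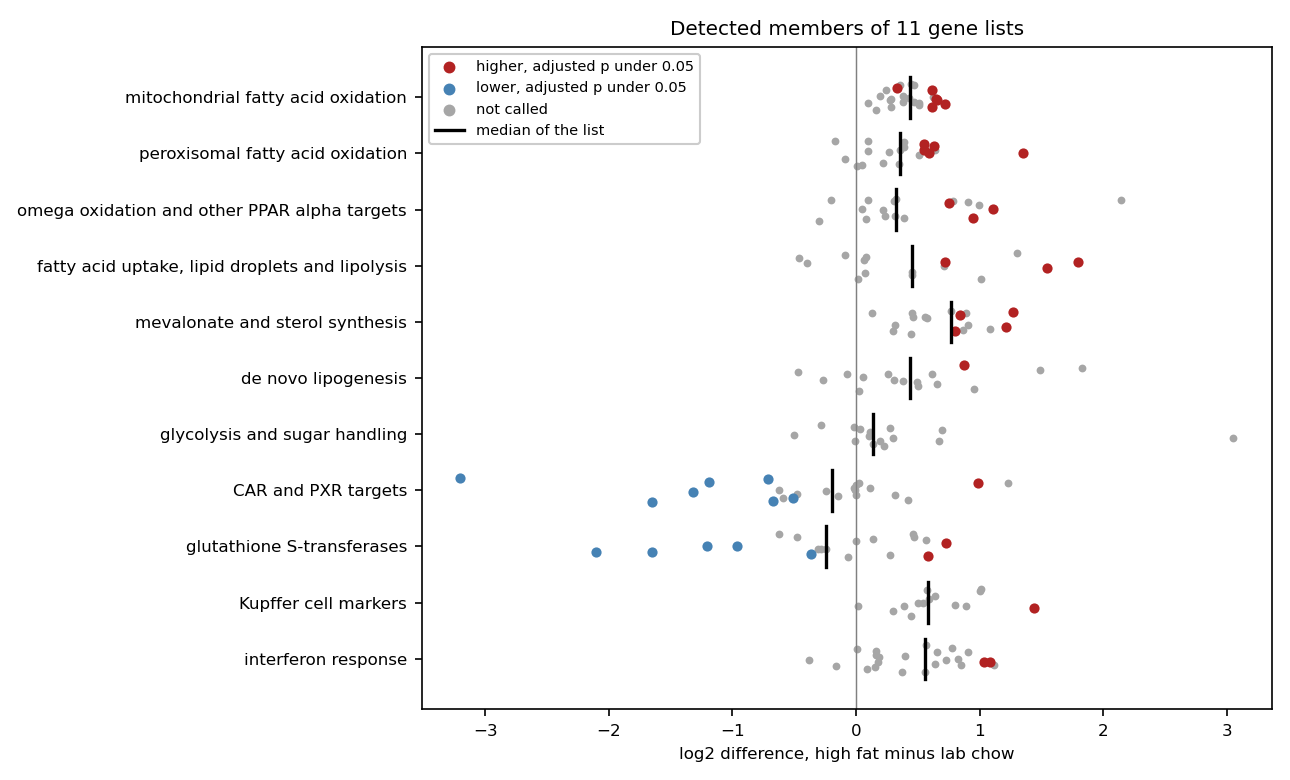
Log2 difference, high fat minus lab chow, of every detected member of 11 gene lists, with genes called higher in red, genes called lower in blue and the others in grey, and the median of a list as a black bar. The lists of mitochondrial fatty acid oxidation and sterol synthesis lie to the right of 0, with medians of 0.44 and 0.77 over all members shown, those detected on 1 diet only included. Of the 19 peroxisomal genes 17 lie to the right and 2 to the left (median 0.36). The called genes of the CAR and PXR list and the transferase list lie mostly to the left.

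Lipid handling followed with 3 calls among 15 detected genes of uptake, droplets and lipolysis, all higher (median 0.45). Fabp2, the intestinal fatty acid binding protein, read 3998, 3966 and 6704 on high fat and 1371, 1404 and 1310 on lab chow, so that the lowest high-fat array stood far above the highest lab chow array. It reached 348% of lab chow (267 to 454%, limma adjusted p = 6.96e-06). AIN-93 arrays lay between, at 3080, 3227 and 2740. Mgll, the lipase that splits monoglycerides, read 1842, 1623 and 1472 on high fat, 557, 638 and 503 on lab chow and 618, 1144 and 860 on AIN-93 (291% of lab chow, 204 to 415%, adjusted p = 0.00138). Cideb, which helps load lipid onto very low density lipoprotein, stood at 164% (137 to 197%, adjusted p = 0.00229). These 3 genes were called without any single array and with the spike-in covariate (adjusted p = 0.0186 for Fabp2, 0.00485 for Mgll and 0.0399 for Cideb). Cd36, a fatty acid uptake protein, read 429, 286 and 391 on high fat and 211, 225 and 123 on lab chow and did not pass (adjusted p = 0.283).

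Apolipoprotein genes rose in 2 of 19 detected cases and none fell (median 0.10). Apoa4, an apolipoprotein of triglyceride-rich particles, read 3435, 2727 and 2917 on high fat and 760, 830 and 698 on lab chow (396%, 232 to 677%, limma adjusted p = 0.00385). The AIN-93 arrays read 2749, 5972 and 3305, and in the same fit Apoa4 differed from AIN-93 by a log2 value of -0.33 (-1.10 to 0.44) on high fat and -2.31 (-3.09 to -1.54) on lab chow. Apoc2, the cofactor of lipoprotein lipase, reached 185% of lab chow (141 to 241%, adjusted p = 0.00807). Both were called without any single array and neither with the spike-in covariate (adjusted p = 0.186 and 0.349). In glycerolipid synthesis 3 of 16 detected genes rose, namely Agpat3, Chkb and Gnpat, at 127 to 139% of lab chow, and Agpat3 kept its call with the covariate (adjusted p = 0.0399). Without single arrays Agpat3 was lost in 2 of 6 fits (up to 0.065, without high fat replicate 1), Chkb in 4 (0.184, without lab chow replicate 2) and Gnpat in all 6 (0.15, without high fat replicate 1).

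The largest fitted increase of any gene was in Mfsd2a, a transporter of lysophospholipids that carry long-chain fatty acids. It read 765, 1928 and 1248 on high fat and 76.0, 72.9 and 26.7 on lab chow, all 3 of the lab chow values being below the detection level. Set against that level, it was at least 12.3-fold higher on high fat (limma adjusted p = 0.0036). The AIN-93 arrays read 46.5, 317 and 254. Its call held without any single array (adjusted p up to 0.027) and was lost with the spike-in covariate (log2 difference 4.94, adjusted p = 0.108).

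**Figure D3:**
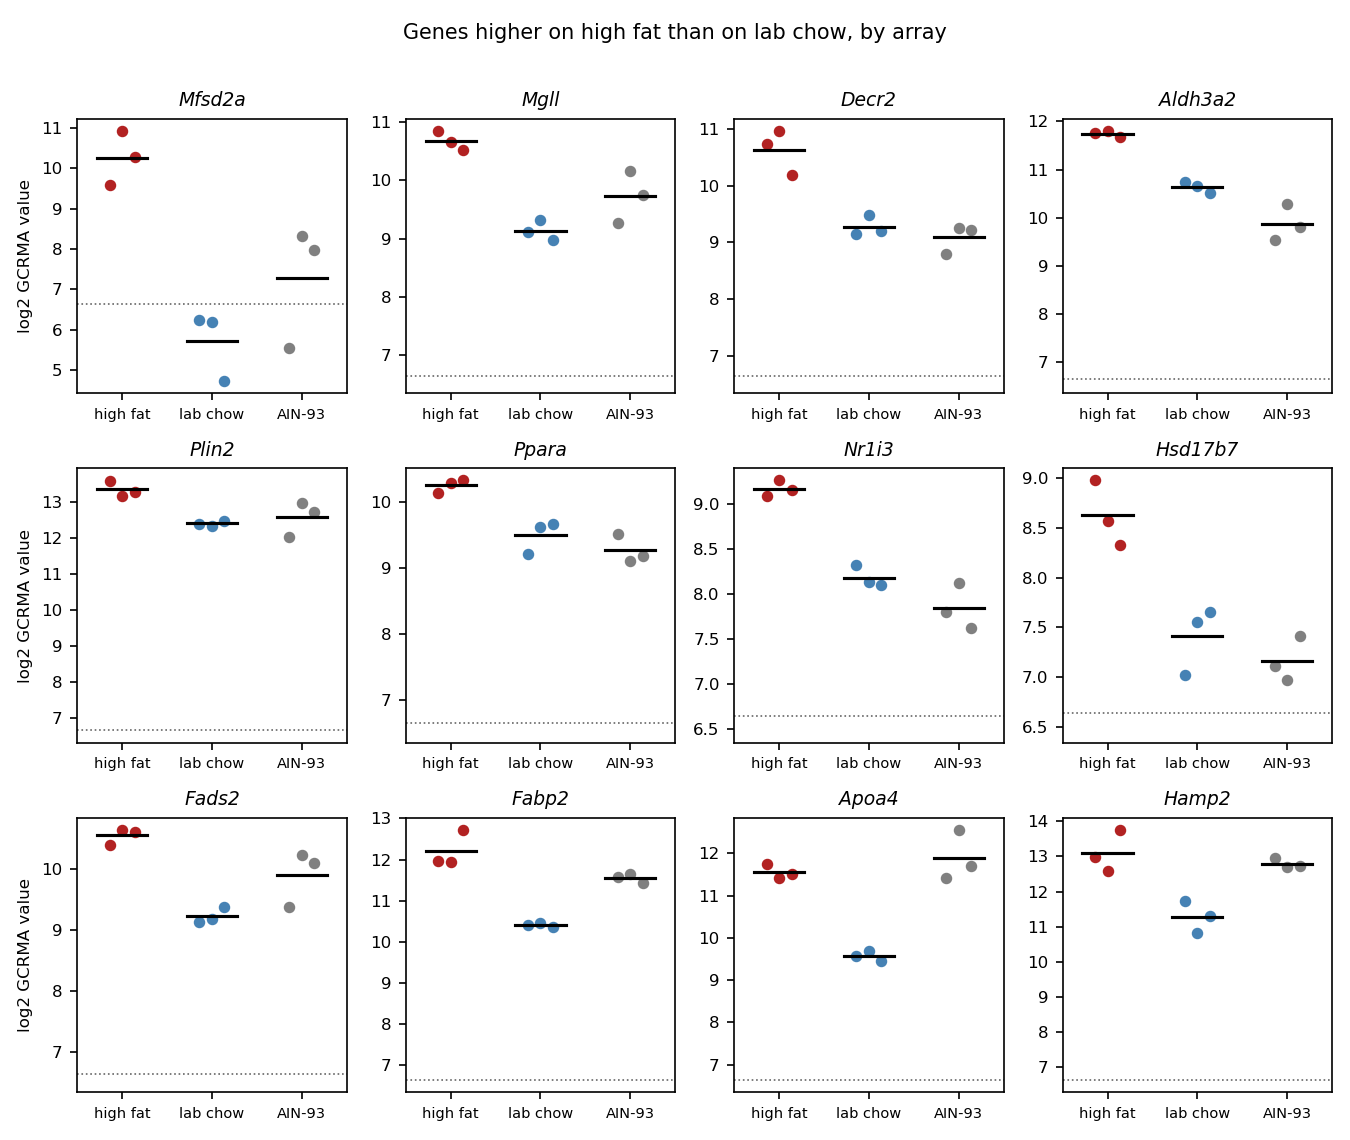
Log2 GCRMA values of 12 genes that were higher on high fat than on lab chow, 1 point an array and a bar at the mean of 3, for high fat (red), lab chow (blue) and AIN-93 (grey), with the detection level of log2(100) dotted and a separate scale in each panel. Lab chow arrays of Mfsd2a lie below the dotted line, and Apoa4 and Hamp2 on AIN-93 lie among or beside the high-fat arrays.

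In mevalonate and sterol synthesis 15 genes were detected on both diets, and they all lay above 0 on high fat (median log2 difference 0.57), with 3 that rose. A further 2 genes, of which Mvd was called, were detected on high fat only, which gives 4 calls in 17 genes. Hsd17b7, a reductase of the sterol pathway, read 504, 378 and 321 on high fat and 130, 188 and 201 on lab chow (232%, 171 to 314%, limma adjusted p = 0.00234), against 138, 126 and 170 on AIN-93. Fdft1, the squalene synthase, read 4875, 4271 and 3810 on high fat and 1851, 2771 and 2676 on lab chow (179%, 134 to 241%, adjusted p = 0.018). Msmo1, the sterol C4 methyl oxidase, reached 174% (129 to 235%, adjusted p = 0.0251). Mvd, the mevalonate decarboxylase, read 159, 114 and 116 on high fat and 43.3, 55.2 and 63.0 on lab chow, below the detection level, and was at least 1.28-fold higher (adjusted p = 0.0124). Idi1 (adjusted p = 0.147), Hmgcs1 (0.292) and Sqle (0.214), at 149, 147 and 182% of lab chow, did not pass. In 8 detected genes of SREBP2 control and low density lipoprotein uptake none was called (median 0.38). With the spike-in covariate the median of the 17 sterol genes was 0.64 and 1 call was kept, that of Hsd17b7 (adjusted p = 0.039). Without single arrays Hsd17b7 was always called, Mvd was lost in 2 fits (up to 0.0747, without high fat replicate 1), and Fdft1 and Msmo1 were lost in 3 each (up to 0.0942 and 0.128, both without lab chow replicate 1).

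The promoter of a sterol gene can carry a sterol regulatory element, whose core TCACNCCAC was searched on both strands in the 250 bases upstream of the starts in RefSeq (GRCm38.p6). It was found in 1.05% of all 32851 promoters and in 1 of the 17 promoters of the sterol list, which belong to the 14 genes that matched. In the other lists searched it was found in 1 of 17 peroxisomal and 2 of 25 transferase promoters. None of the 20 mitochondrial and none of the 20 omega oxidation promoters held it. The gene of the sterol list is Hmgcs1, the cytosolic synthase at the entry of the pathway, which was not called. The stretch around the core, at chr13:119690189-119690247 on the plus strand, is shown because it is the only match in the sterol list, with the core in capitals and starting 137 bases before the gene start.
Hmgcs1: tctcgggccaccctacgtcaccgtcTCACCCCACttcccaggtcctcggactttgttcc
A match is a description of these letters only.

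Desaturation and elongation of polyunsaturated fatty acids showed calls in both directions among 9 detected genes. Fads2, the delta-6 desaturase, read 1348, 1588 and 1558 on high fat and 558, 579 and 663 on lab chow (250%, 171 to 364%, limma adjusted p = 0.00555). AIN-93 arrays read 661, 1200 and 1099. Elovl5, an elongase of the same route, reached 183% (131 to 256%, adjusted p = 0.0309). Acsl4, which prefers arachidonic acid as its substrate, was lower at 69.4% of lab chow (55.4 to 86.9%, adjusted p = 0.0485). Outside this list Lpcat3, which places polyunsaturated chains in phospholipids, rose to 149% (123 to 181%, adjusted p = 0.0135). None of the 4 was called with the spike-in covariate (adjusted p = 0.108, 0.33, 0.152 and 0.33), and without single arrays Fads2 was always called, Lpcat3 was lost in 3 fits (up to 0.0742, without high fat replicate 1), Elovl5 in 5 (0.111, without high fat replicate 3) and Acsl4 in 6 (0.15, without high fat replicate 1).

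Synthesis of new fatty acids and the handling of sugar were compared next. In de novo lipogenesis 1 of 16 detected genes rose, Elovl5 named above. This was 6.25%, against 5.86% called over all detected genes. Of the 15 detected on both diets 12 lay above 0 (median log2 difference 0.38), and with the spike-in covariate the median of the 16 was 0.18. In 15 detected genes of glycolysis and sugar handling and 15 of gluconeogenesis none was called. Fasn, the fatty acid synthase, read 2454, 2264 and 2425 on high fat and 1197, 1367 and 1128 on lab chow, without overlap, and its interval was wide (194%, 72.7 to 517%, limma adjusted p = 0.423). On AIN-93 it read 3425, 5159 and 8080. Acaca, which makes malonyl-CoA, read 268, 257 and 285 on high fat, 177, 175 and 163 on lab chow and 430, 601 and 879 on AIN-93 (adjusted p = 0.504). Thrsp, a lipogenic protein that responds to carbohydrate, read 7887, 10182 and 7265 on high fat and 2281, 3354 and 1694 on lab chow (356%, 157 to 807%, adjusted p = 0.0575). Rgs16 read 67.7, 378 and 149 on high fat and 22.8, 29.7 and 9.84 on lab chow (adjusted p = 0.0582), against 1024, 1871 and 642 on AIN-93. The variance of each gene was estimated over the arrays of all 9 diets, and in a fit on the 6 arrays alone these 4 genes were called. Pck1, of glucose production, read 781, 1752 and 736 on high fat and 1560, 2442 and 1510 on lab chow and did not pass (adjusted p = 0.205).

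The list of genes that CAR and PXR are known to induce also held the receptor genes Nr1i3 and Nr1i2 themselves. Of its members 22 were detected, and on high fat 7 of them fell and 1, Nr1i3, rose (median log2 difference -0.20). Over the 20 detected on both diets, without Cyp2c55, 6 fell and 1 rose (median -0.20). Cyp2c55, a P450 of the 2C family, read 27.5, 32.0 and 26.7 on high fat, all below the detection level, and 262, 223 and 313 on lab chow. It was at least 2.63-fold lower on high fat (limma adjusted p = 4.78e-06), and the AIN-93 arrays read 24.7, 17.3 and 25.8. Cyp3a11, the main P450 of the 3A family in mouse liver, read 12250, 15115 and 18981 on high fat and 38804, 36366 and 38691 on lab chow (40.1%, 28.9 to 55.6%, adjusted p = 0.00198). In the same fit its log2 difference from AIN-93 was -0.03 (-0.50 to 0.44) on high fat and 1.29 (0.82 to 1.76) on lab chow. Ces2a, a carboxylesterase, read 3003, 2740 and 2801 on high fat, 6849, 5962 and 6725 on lab chow and 2283, 2025 and 1772 on AIN-93 (43.8% of lab chow, 35.0 to 54.9%, adjusted p = 0.000313). Ephx1, the microsomal epoxide hydrolase, stood at 61.1% of lab chow (46.6 to 80.0%, adjusted p = 0.0282), and Gsta2, Cyp3a25 (62.9%) and Cyp2c29 (70.4%) were the other decreases.

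The 1 member that rose was the receptor itself. Nr1i3, which encodes CAR, read 544, 614 and 568 on high fat, 319, 279 and 273 on lab chow and 222, 278 and 197 on AIN-93 (198% of lab chow, 149 to 265%, limma adjusted p = 0.00649). Nr1i2, which encodes PXR, read 164, 185 and 179 on high fat and 201, 179 and 155 on lab chow, with overlapping arrays (99.3%, 74.0 to 133%, adjusted p = 0.987). Of 17 detected nuclear receptors, Nr1i3 and Ppara were the 2 that were called. Nr1i3, Cyp2c55 and Ces2a were called with the spike-in covariate as well (adjusted p = 0.0186, 0.0186 and 0.0228), while Cyp3a11 (0.32), Ephx1 (0.719), Gsta2 (0.177), Cyp3a25 (0.349) and Cyp2c29 (0.301) were not. Without single arrays Nr1i3, Cyp2c55, Cyp3a11 and Ces2a were always called, Cyp3a25 was lost in 1 fit (0.0607), Gsta2 in 5 (up to 0.175), and Ephx1 and Cyp2c29 in 6 (up to 0.0998 and 0.167), in these 4 cases highest without high fat replicate 1.

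Glutathione S-transferases gave 5 decreases and 2 increases among 19 detected genes (median log2 difference -0.24). Gstm3 read 235, 278 and 341 on high fat and 1134, 1073 and 1454 on lab chow (23.3%, 13.2 to 40.9%, limma adjusted p = 0.0037), with 357, 227 and 335 on AIN-93. Gsta2 read 1674, 2041 and 3610 on high fat, 10875, 6189 and 5713 on lab chow and 784, 701 and 469 on AIN-93 (31.8% of lab chow, 16.0 to 63.3%, adjusted p = 0.0445). Gsta4, which clears hydroxynonenal, a product of lipid peroxidation, read 622, 618 and 1014 on high fat, 1910, 1506 and 1670 on lab chow and 322, 355 and 333 on AIN-93 (43.3% of lab chow, 29.5 to 63.5%, adjusted p = 0.0111). For these genes of alpha class the high-fat arrays lay between the AIN-93 and the lab chow arrays. Mgst3, a microsomal transferase, stood at 51.4% (36.9 to 71.6%, adjusted p = 0.0165) and Gstp1 at 77.6% (67.5 to 89.3%, adjusted p = 0.0295). The 2 increases were in Gstz1, an enzyme of tyrosine breakdown, at 166% of lab chow (135 to 203%, adjusted p = 0.00507), and in Gstk1, the transferase of mitochondria and peroxisomes, at 150% (120 to 187%, adjusted p = 0.0279).

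Of 20 detected genes of glutathione synthesis and NRF2 targets, 1 fell, Ephx1, which is named above. This was 5%, against 5.86% called over all detected genes. Gclc, which limits glutathione synthesis, did not pass (75.4%, 58.3 to 97.4%, limma adjusted p = 0.176). In 16 detected genes of heme synthesis and iron handling Blvrb, a biliverdin reductase, fell to 70.2% of lab chow (adjusted p = 0.0251), and Hamp2 rose. Akr1c19, an aldo-keto reductase, fell to 43.0% of lab chow (32.7 to 56.4%, adjusted p = 0.00108), and Ces1d to 64.2% (50.5 to 81.5%, adjusted p = 0.0257). Aldh9a1, an aldehyde dehydrogenase of carnitine synthesis, rose to 148% (131 to 167%, adjusted p = 0.000607), with 3 high-fat arrays between 7981 and 8240 and 3 lab chow arrays between 5376 and 5577. Among the genes of these last 2 paragraphs Gsta4 alone was called with the spike-in covariate (adjusted p = 0.0375), the next being Aldh9a1 (0.0597), then Akr1c19 and Gstm3 (0.0631 each). Without single arrays Gstm3, Gstz1, Akr1c19 and Aldh9a1 were always called. Gsta4 was lost in 2 fits (up to 0.0607, without high fat replicate 1), Mgst3 in 3 (0.0801, without high fat replicate 2), Ces1d in 5 (0.115, without high fat replicate 1), and Gstp1 (0.115, without high fat replicate 1), Gstk1 (0.0997, without lab chow replicate 3) and Blvrb (0.087, without lab chow replicate 2) in 6. Probes for transferases, for P450 enzymes and for Hamp2 can bind closely related family members, so which member changed is uncertain.

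**Figure D4:**
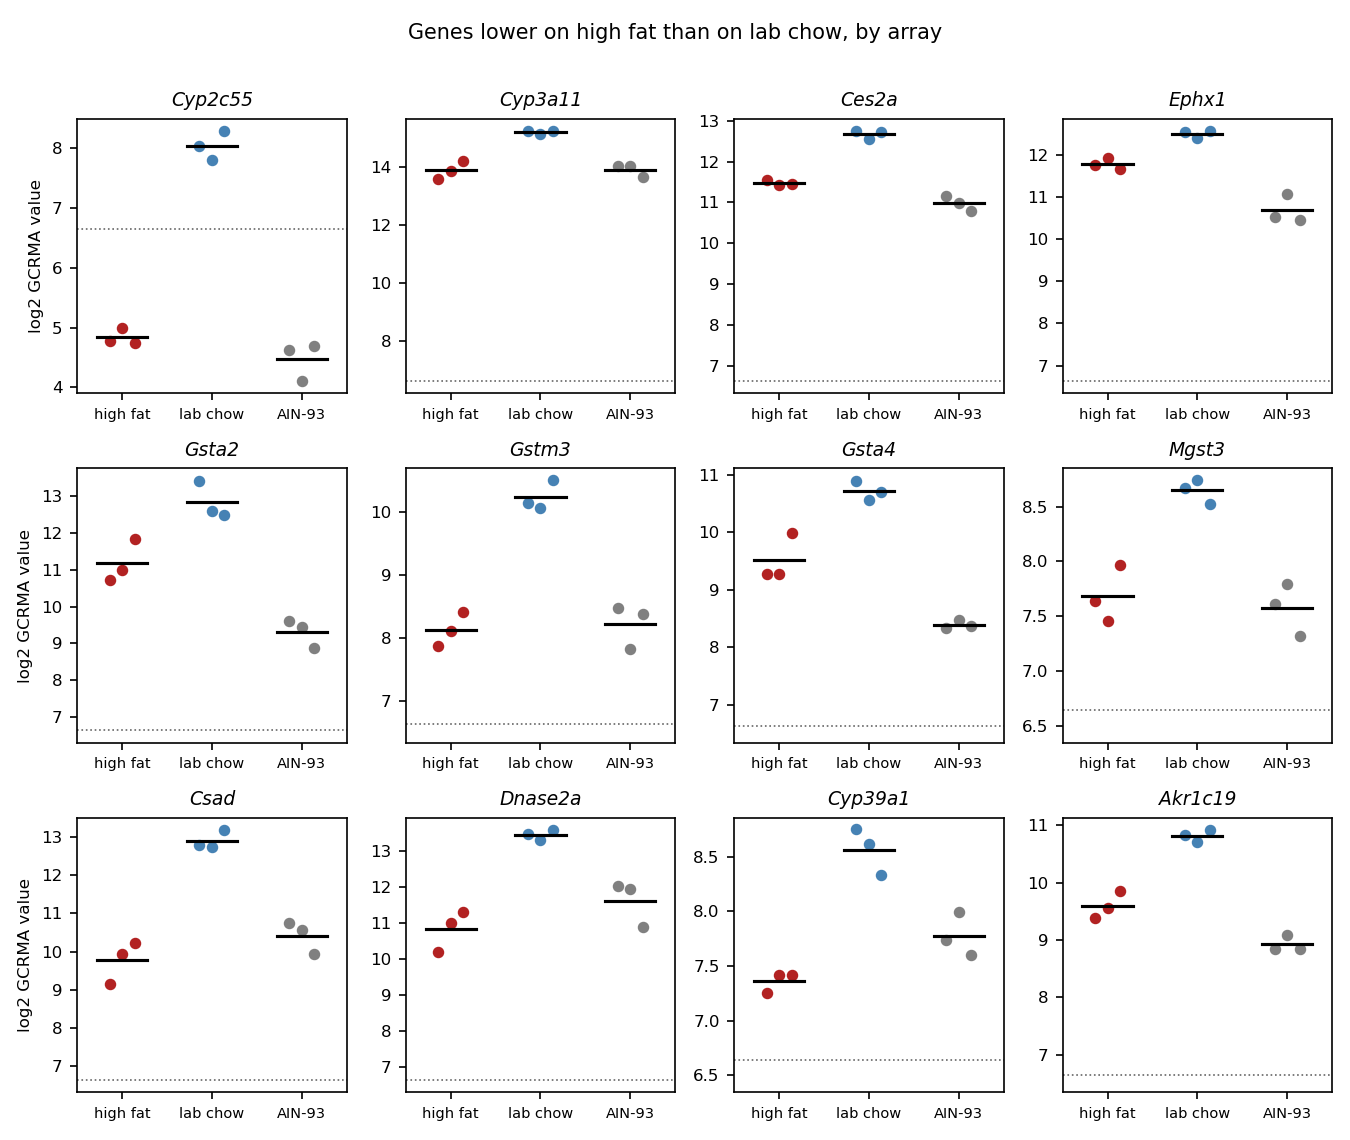
Log2 GCRMA values of 12 genes that were lower on high fat than on lab chow, 1 point an array and a bar at the mean of 3, for high fat (red), lab chow (blue) and AIN-93 (grey), with the detection level of log2(100) dotted and a separate scale in each panel. Lab chow is the highest of the 3 diets in every panel, and all high-fat arrays of Cyp2c55 lie below the dotted line.

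In bile acid synthesis 1 of 18 detected genes was called (5.56%, against 5.86% over all detected genes). Cyp39a1, an oxysterol hydroxylase, read 153, 171 and 171 on high fat, 430, 392 and 322 on lab chow and 213, 254 and 195 on AIN-93 (43.5% of lab chow, 31.1 to 60.8%, limma adjusted p = 0.00488), and was called without any single array and with the spike-in covariate (adjusted p = 0.0186). Cyp7a1, the rate-limiting enzyme, read 517, 936 and 314 on high fat and 497, 596 and 423 on lab chow, with overlapping arrays and a wide interval (107%, 32.7 to 348%, adjusted p = 0.967). Of 14 detected transporters 2 rose and 1 fell, Slco1a4, which was detected on lab chow only. Abcb4, which moves phosphatidylcholine into bile, stood at 154% (124 to 193%, adjusted p = 0.0193) and kept its call with the covariate (adjusted p = 0.00485). Slc47a1, which exports organic cations, stood at 145% (118 to 178%, adjusted p = 0.0287). Slco1a4, an uptake transporter of organic anions, read 64.8, 102 and 120 on high fat, 363, 331 and 414 on lab chow and 159, 135 and 67.3 on AIN-93 (25.2% of lab chow, 11 to 57.5%, adjusted p = 0.0442). The 3 transporter calls were lost in 5 or 6 of the fits without 1 array (up to 0.0842 for Abcb4 without lab chow replicate 2, 0.113 for Slc47a1 without lab chow replicate 3 and 0.171 for Slco1a4 without high fat replicate 1), and with the covariate Slc47a1 had an adjusted p of 0.064 and Slco1a4 of 0.589.

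The largest measured decrease in a gene detected on both diets was in Csad, the decarboxylase that makes hypotaurine for taurine synthesis. It read 568, 984 and 1207 on high fat and 7037, 6769 and 9209 on lab chow, which was 11.5% of lab chow (6.19 to 21.5%, limma adjusted p = 0.000432). The AIN-93 arrays read 1706, 1505 and 975, with a log2 difference from AIN-93 of -0.63 (-1.53 to 0.27) on high fat and 2.48 (1.58 to 3.38) on lab chow. Dnase2a, the acid nuclease of lysosomes, followed with 1171, 2038 and 2551 on high fat and 11464, 10149 and 12246 on lab chow (16.2%, 8.66 to 30.4%, adjusted p = 0.00174), and with 4165, 3984 and 1903 on AIN-93. Each gene was read by 1 probe. Both were called without any single array, and Csad with the spike-in covariate (adjusted p = 0.039) but not Dnase2a (0.0765). The other 15 detected genes of serine, methionine, cysteine and taurine metabolism held 1 call, Shmt1 at 138% (113 to 167%, adjusted p = 0.0481), which was lost in 5 of the fits without 1 array (up to 0.216, without high fat replicate 1) and with the covariate (0.496).

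In amino acid breakdown 4 of 47 detected genes rose and none fell (median 0.09). The share called was 8.51%, against 5.86% over all detected genes. Dmgdh and Sardh, which demethylate dimethylglycine and sarcosine, stood at 150 and 149% of lab chow (limma adjusted p = 0.00428 and 0.0295). Haao, of tryptophan breakdown, stood at 149% and Fah, of tyrosine breakdown, at 139% (adjusted p = 0.00441 and 0.0123). Dmgdh and Haao were called without any single array, and Dmgdh also with the spike-in covariate (adjusted p = 0.0186). Sardh was lost in 6 of those fits (up to 0.0873, without high fat replicate 1) and Fah in 3 (up to 0.0559, without high fat replicate 2).

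Among the remaining largest changes were Hamp2 and Rtn4, which were higher, and a set of single genes that were lower. Hamp2, a hepcidin-like peptide, read 8106, 6133 and 13669 on high fat, 3392, 1792 and 2506 on lab chow and 7911, 6701 and 6723 on AIN-93 (355% of lab chow, 203 to 620%, limma adjusted p = 0.00831). Rtn4, which shapes the endoplasmic reticulum, reached 224% (166 to 303%, adjusted p = 0.00282). Eepd1 read 153, 143 and 130 on high fat and 51.5, 31.4 and 49.9 on lab chow, below the detection level, and was at least 1.41-fold higher (adjusted p = 0.000474). Itih5, a heavy chain of the inter-alpha-trypsin inhibitor family, fell to 40.7% (28.1 to 58.9%, adjusted p = 0.00547), and Etfbkmt, which methylates the electron transfer flavoprotein, to 41.9% (28.7 to 61.2%, adjusted p = 0.00755). All 3 high-fat arrays lay below the detection level for Raly, an RNA-binding protein, and for Usp6nl, which acts on Rab5. The mean on lab chow was 2.07-fold above that level for Raly (fitted interval 28.6 to 54.9% of lab chow, adjusted p = 0.00193). For Usp6nl it was 2.24-fold above (30.4 to 52.9%, adjusted p = 0.00055). Of these 7 genes, all called without any single array, Etfbkmt was called with the spike-in covariate (adjusted p = 0.039), and the others had adjusted p from 0.0932 (Eepd1) to 0.435 (Hamp2).

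Several of the other largest changes lost their calls without single arrays. Slc20a1, a phosphate transporter, at 242% of lab chow (limma adjusted p = 0.0462) was lost in 5 of the 6 fits without 1 array (up to 0.188, without lab chow replicate 3). Pnrc1, a coactivator of nuclear receptors, at 42.6% (adjusted p = 0.0479) was also lost in 5 (up to 0.157, without lab chow replicate 2). The 3 genes known by clone names, 9030619P08Rik (at least 1.02-fold higher), 2010003K11Rik (at least 1.25-fold higher) and 1810055G02Rik (291%), were lost in 4 or 5 of these fits (up to 0.117, 0.0958 and 0.126, without lab chow replicate 3, high fat replicate 3 and lab chow replicate 3). With the spike-in covariate none of these 5 genes was called (adjusted p from 0.0856 to 0.25).

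Kupffer cells are the resident macrophages of the liver. Of 19 markers 14 were detected, not among them Timd4 and Marco, and 3 of the 14 were detected on high fat only. The 11 markers detected on both diets all lay above 0 on high fat (median log2 difference 0.59). Over the 14 detected the share called was 7.14%, against 5.86% over all detected genes. The 1 call was Clec4f, a lectin of these cells. It read 667, 386 and 350 on high fat, 176, 187 and 138 on lab chow and 285, 334 and 465 on AIN-93 (271% of lab chow, 175 to 420%, limma adjusted p = 0.00831). Cd5l, a secreted protein of macrophages, read 2276, 1322 and 1077 on high fat and 898, 772 and 586 on lab chow and did not pass (adjusted p = 0.114). Summed over the 19 markers, detected or not, and with all probes of a gene averaged, their intensity was 5937 to 10426 on high fat, 3933 to 5231 on lab chow and 6645 to 9169 on AIN-93. In whole liver more cells of a type and more RNA per cell cannot be told apart. With the spike-in covariate the median of the 14 markers was 0.00 and Clec4f was not called (adjusted p = 0.437), and without high fat replicate 1 it had an adjusted p of 0.0626. Ccl6, a chemokine, had a mean on high fat 1.74-fold above the detection level (fitted interval 143 to 451% of lab chow, adjusted p = 0.049). Its call was lost in all 6 fits without 1 array (up to 0.179, without lab chow replicate 3), and it had an adjusted p of 0.842 with the covariate.

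Among the other cell types of the liver, calls were made in endothelial and hepatocyte genes. The share called was 9.09% in the detected endothelial markers and 8.33% in the hepatocyte genes, against 5.86% over all detected genes. Of 11 detected sinusoidal endothelial markers, 8 of them on both diets, 1 rose, Stab2, a scavenger receptor of these cells (171%, 134 to 217%, limma adjusted p = 0.00968), which had an adjusted p of 0.186 with the spike-in covariate and was lost in 2 fits without 1 array (up to 0.0607, without high fat replicate 1). Summed in the same way over all 17 markers, endothelial intensity was 1538 to 1884 on high fat and 1457 to 1660 on lab chow. Of the 9 detected stellate cell and collagen genes none was called, with sums of 1448 to 1684 on high fat and 1214 to 1453 on lab chow. None of 14 T and NK cell markers, 7 B cell markers, 8 neutrophil markers and 6 cholangiocyte markers was detected on either diet. The 12 genes that define hepatocytes, all detected, summed to between 381194 and 389287 on high fat and between 374388 and 380022 on lab chow. Of these 12, Asgr1, a subunit of the asialoglycoprotein receptor, rose to 134% (113 to 159%, adjusted p = 0.0409), which was lost in 5 fits without 1 array (up to 0.152, without high fat replicate 1) and with the covariate (0.407).

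Of 23 detected interferon response genes 6, Xaf1 among them, were detected on high fat only. The share called over the 23 was 8.7%, against 5.86% over all detected genes. Of the 17 detected on both diets 15 lay above 0 (median log2 difference 0.18), and 1 rose, Psmb9. Psmb9, a subunit of the immunoproteasome, read 467, 386 and 367 on high fat and 319, 186 and 129 on lab chow (205%, 135 to 311%, limma adjusted p = 0.0393). Xaf1, an interferon-induced gene, read 134, 140 and 174 on high fat and 109, 54.9 and 57.0 on lab chow (212%, 148 to 306%, adjusted p = 0.0132). Ifit1, which binds viral RNA, read 172, 115 and 132 on high fat and 126, 34.7 and 59.0 on lab chow, with overlapping arrays (adjusted p = 0.0878). Lab chow replicate 1 was the highest of the 3 lab chow arrays in each of these genes. Neither call was kept with the spike-in covariate (adjusted p = 0.512 and 0.479, and a median of 0.31 over all 23), and without single arrays Psmb9 was lost in 5 fits and Xaf1 in 3 (up to 0.193 and 0.0796, both without lab chow replicate 3).

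Clock genes gave 1 call among 12 detected (8.33%, against 5.86% over all detected genes) in these livers, which were all taken in the morning. The 8 clock genes detected on both diets had none. Arntl, the activating partner of Clock, read 74.8, 19.0 and 90.0 on high fat and 134, 169 and 150 on lab chow, and was at least 1.5-fold lower (limma adjusted p = 0.0445). Dbp, a gene that Arntl and Clock drive, read 348, 814 and 476 on high fat and 198, 66.2 and 27.2 on lab chow, without overlap, and did not pass (724%, 156 to 3354%, adjusted p = 0.109). The call of Arntl was lost in 5 fits without 1 array (up to 0.219, without high fat replicate 2, the lowest of the 3) and with the spike-in covariate (adjusted p = 0.247).

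Large groups of housekeeping genes were also compared. The share called was 1.41% in oxidative phosphorylation, 9.52% in the citrate cycle, 3.23% in the proteasome and 5.26% in cytosolic ribosomal proteins. Over all detected genes it was 5.86%. Of 71 detected subunits of oxidative phosphorylation 1 rose, Ndufs3 at 125% of lab chow, and the list had a median of 0.04. In the citrate cycle 2 of 21 rose, Idh3g and Suclg1, at 141 and 138%. In the proteasome 1 of 31 rose, Psmd4 at 172%. Of 38 detected cytosolic ribosomal proteins none rose and 2 fell, Rps24 and Rpl35, at 76.7 and 78.0% (median -0.12). No call was made in 22 genes of endoplasmic reticulum chaperones and stress or in 14 cytosolic heat shock proteins. None of these 6 calls was kept with the spike-in covariate (adjusted p from 0.105 to 0.456). Without single arrays Idh3g and Psmd4 were always called, while Ndufs3 and Rpl35 were lost in 6 fits (up to 0.14 and 0.134, without high fat replicate 1), Suclg1 in 3 (0.0671, without lab chow replicate 3) and Rps24 in 2 (0.0726, without high fat replicate 1).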

How the data were processed

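Total liver RNA was hybridized to Affymetrix Mouse 430 2.0 arrays, 3 mice a diet. The deposited values are log2 expression values that the authors obtained with GCRMA over all arrays, so background, probe affinity and quantile normalization were already applied, and their versions are not given in the sources used here. Of 45101 probes, 34958 carry 1 symbol in the platform annotation, 932 several and 9211 none, and only probes with 1 symbol name a gene. After 64 control probes were left out, a gene took the mean of its probes above log2(100) in the mean of either diet. Intensities in the text are antilogs of these log2 values, and a percent of lab chow is the antilog of the log2 difference. limma 3.58.1 in R 4.3.3 was fitted to all 27 arrays with 1 coefficient a diet, after a test on simulated data, with Benjamini-Hochberg adjustment over 5935 genes. With 3 arrays a group the number of arrays limits precision. A gene with all 3 arrays of a diet below log2(100) is given as a bound against that level. The bound uses the mean of the other diet and leaves out the spread between mice. The named genes are taken from the 15 largest increases and decreases among called genes without overlap, anchor genes of 55 gene lists and up to 4 called members a list; Eci1, Acadvl, Pxmp2, Cyp3a25, Cyp2c29, Gstz1 and Gstk1 were named after their values were seen. Members, lists and tests were chosen with earlier results of these data known. Alternatives were a fit on 6 arrays, other filters and priors, array weights, 2 rescalings, the brightest probe, probes in place of genes, a replicate block and the omission of each array, and the 2 spike-in fits were added after seeing the data. Summed marker levels use all probes of a gene. Promoters are from RefSeq. No column of the value table was left unused.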

Additional observations from a re-analysis of the deposited data

Results flagged for a closer look

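Control probes, which are not among the genes compared above, differed between the diets, and the spike-in probes among them gave the covariate used above. The mean log2 level of the 12 poly-A spike-in probes was 2.89 lower on high fat (high fat minus lab chow, -2.89), and the 3 probes of 18S ribosomal RNA gave -3.10. The log2 excess of the 3′ over the 5′ probe of Gapdh differed by -0.58 in the same direction, high fat minus lab chow. They were picked out because they lie in data outside the gene comparison and separate all 3 high-fat arrays from all 3 lab chow arrays. Low 18S values were seen on 1 other array, of the high-fructose diet (11.4), whose spike-in level was 10.3. The part of these differences in the gene results was not tested beyond the fits with the spike-in level as a term.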

How the results depend on the processing

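Counts are higher and lower. They were 246 and 102, and within 1.5 times that with a filter at log2(200), a trended robust prior, centred or requantiled arrays, a replicate block and the brightest probe. They were 387 and 176 on the 6 arrays alone, 141 and 44 with no filter, 731 and 323 with array weights, 377 and 183 for probes in place of genes, 27 and 13 with the spike-in level as a covariate and 29 and 16 with its side as a term. Without 1 array the counts ranged from 84 to 157 and from 30 to 65, and each such fit had 2 arrays in 1 group. Centring and requantiling moved the share of increases among calls to 61.1 and 62.6%. With a replicate block 250 and 106 genes were called, and 317 of the 348 calls were kept. Deviations of arrays with the same number had correlations of -0.06, 0.22 and -0.02, against -0.14 to 0.15 for arrays with different numbers. With 3 arrays a group this cannot decide whether the numbers pair mice. Of the 88 called genes named above or below, 35 were kept without each array in turn and 20 with the spike-in covariate, and the direction was the same in every fit that tested them. 2 genes that were not called changed sign, Nr1i2 (log2 difference 0.16 with no filter, 0.015 with array weights, -0.11 to 0.080 without 1 array, with 0.040 without high fat replicate 1) and Cyp7a1 (-0.028 with no filter, -0.31 to 0.48 without 1 array, with -0.029 without lab chow replicate 3, and -0.48 with the spike-in side). The cause of these shifts was not tested. Without intensity of the raw scans, saturation and background of single probes could not be judged.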

Other observations

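Genes with a position along the liver lobule and genes with a sex bias were also compared. Of 10 detected genes that are higher near the portal vein none was called and 2 lay above 0 (median log2 difference -0.17). Of 9 detected genes that are higher near the central vein 8 lay above 0 (median 0.31), and Lect2 was called, at 153% of lab chow (119 to 198%, limma adjusted p = 0.0443). It lost the call without each of the 6 arrays (up to 0.16, without lab chow replicate 3) and with the spike-in covariate (adjusted p = 0.269). Of 22 genes that are higher in female mouse liver 3 were detected, of which Hamp2 and Rtn4 rose and Slco1a4, detected on lab chow only, fell. Of 16 detected genes that are higher in male liver 1 fell, Gstp1, and none rose. The share called in this male list was 6.25%, against 5.86% over all detected genes.

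The letters of a direct repeat of AGGTCA spaced by 1 base, which PPAR with RXR binds, were found on either strand in 0.0335% of 32851 RefSeq promoters and in none of the matched genes of the fatty acid oxidation lists. The core TGACNNNGC of an antioxidant response element was found in 10.2% of all promoters and, among the transferase genes that matched, in 4 of 25 promoters. It was also found in 3 of 17 sterol, 3 of 17 peroxisomal and 2 of 20 omega oxidation promoters, and in none of 20 mitochondrial ones. The transferase list did not stand apart in this. No match says only that these letters are not in this window.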
